A study of Rattus norvegicus with 12 samples.

Results

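Lithium chloride (LiCl) alone was compared with control medium in cultured metatarsals, the long bones of the foot, taken from fetal Sprague Dawley rats at embryonic day 19. The comparison rests on 6 of the 12 RNA sequencing libraries of the series, 3 from LiCl pools and 3 from control pools. All genes that reached 60 counts in 2 or more libraries of the 12 are described, and they numbered 12602. Every pool held about 20 bones, which stayed in culture for 72 h in a medium with serum albumin, ascorbic acid and β-glycerophosphate. LiCl pools received 10 mM LiCl together with 8 µL of 99% ethanol in 8 mL of medium. Control pools received the same ethanol and no lithium, and no other salt was added to match the chloride or the osmotic load. The remaining 6 libraries of the series came from pools given 1 µM of the synthetic glucocorticoid dexamethasone, without or with LiCl. They entered the estimate of spread and are used at the end for a second look at LiCl. A library is a whole bone rudiment, in which cartilage, the surrounding perichondrium and remnants of soft tissue were not separated. The pools came from 3 consecutive experiments. Each pool is described as taken from 1 rat, with 3 rats used in all, so the groups share rats. The labels do not say which pools share a rat, and the main test below did not pair pools. Throughout, n = 3 pools per group, and the p-values measure the spread between pools.

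Lithium inhibits glycogen synthase kinase 3 (GSK3), the enzyme that marks β-catenin for destruction when no Wnt ligand is present. When GSK3 is inhibited, β-catenin accumulates, enters the nucleus and drives target genes together with TCF/LEF transcription factors. Several of those targets encode feedback inhibitors of the pathway itself, such as Axin2, Nkd1 and Notum. In the growth plate, Wnt, Hedgehog, bone morphogenetic protein (BMP) and fibroblast growth factor (FGF) signals set how fast chondrocytes divide and when they enlarge into hypertrophic cells, which make type X collagen before bone replaces cartilage. Lithium also inhibits inositol monophosphatase and related magnesium-dependent phosphatases. The question behind the comparison is what LiCl does by itself, since the study used it as a Wnt modulator against glucocorticoid-induced growth failure.

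Levels are given as CPM, which scales counts to a common library total, after scaling for library composition, and errors are standard deviations (SD) over 3 pools. Total counts were 10761816 to 21953446 in the control libraries and 13866588 to 20644093 in the LiCl libraries. Type II collagen, the defining protein of cartilage, took 4.31 to 5.37% of all counts in control and 4.10 to 5.02% with LiCl, so the libraries carried the labelled tissue. Control pool 2 had the lowest depth and stood apart. Its rank correlation with the other control pools was 0.984 to 0.985, against 0.993 to 0.995 for every other pair within a group. Without it, 1113 genes passed the test described next in place of 1338, and 948 of the 1338 were among them.

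Differences were tested with the quasi-likelihood test of edgeR over all 12 libraries, and p was adjusted over all 12602 genes. At an adjusted p under 0.05, 594 genes were higher with LiCl (4.71% of those tested) and 744 were lower (5.90%), together 10.6%. A gene was called when it also changed more than 2-fold. There were 102 called genes higher (0.809%) and 97 lower (0.770%), which makes 199 or 1.58% of the genes tested. Most differences were thus moderate in size. The median absolute log2 fold change of the 1338 genes past the test was 0.55, and only 15 genes rose and 9 fell by more than 4-fold. Called genes were also sparse ones, with a median level of 5.88 CPM for those higher and 6.02 CPM for those lower, against 29.9 CPM for all genes tested. Of the 102 higher genes, 44 reached 60 counts in at least 2 LiCl libraries but not in 2 control libraries, and of the 97 lower genes 44 did so in control only, so the filter itself favored a difference in these. The libraries of the groups did not overlap for 198 of the 199. Over all genes, LiCl lay above every control library for 15.4% and below every control library for 16.4%, with no test. Without LiCl pool 1, 2 or 3, the genes past the test fell to 822, 816 and 707. For that reason a gene is said below to have risen or fallen only if it kept an adjusted p under 0.05 in each of 6 fits that left out 1 library, unless the exception is given with it. With the replicate number as a term in the model (replicate block), 936 genes were higher in place of 594 and 1038 lower in place of 744.

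**Figure D1:**
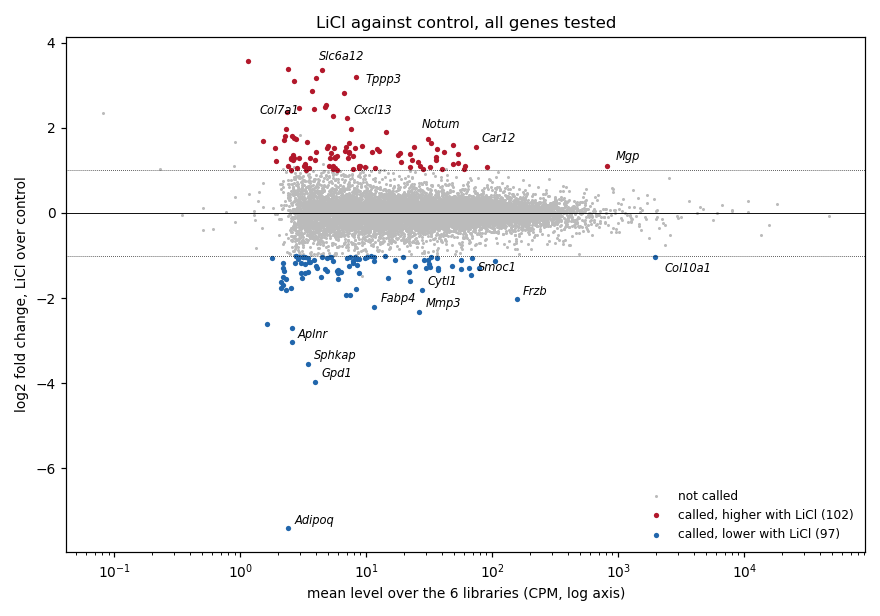
Each point is 1 of the 12602 genes tested, placed by its mean level over the 6 libraries (horizontal, CPM, log axis) and by its log2 fold change of LiCl over control (vertical). Dotted lines mark a 2-fold difference. The 102 red genes and 97 blue genes were called, and most of them lie left of the bulk of the expressed genes, while Mgp and Col10a1 stand out among abundant ones.

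Feedback genes of the Wnt pathway rose with LiCl. Of 22 measured feedback and target genes, 9 were higher and 5 lower at an adjusted p under 0.05, with a median log2 fold change of 0.19 against 0.00092 over all genes. Nkd2, which encodes a Dishevelled-binding inhibitor of the pathway, measured 19.8, 17.9 and 19.5 CPM in the control pools and 52.0, 55.1 and 56.0 CPM in the LiCl pools. It rose 2.85-fold (log2 fold change 1.50 ± 0.09 standard error (SE), edgeR adjusted p = 2.7e-07). Notum, a secreted enzyme that removes the lipid that Wnt ligands need to act, measured 11.1, 14.5 and 17.3 CPM in control and 48.8, 43.3 and 50.5 CPM with LiCl. It rose 3.33-fold (1.74 ± 0.14, edgeR adjusted p = 1.8e-06), and the pools of the groups were far apart. Nkd1, the relative of Nkd2, measured 65.9, 76.9 and 70.7 CPM in control and 113, 128 and 125 CPM with LiCl (0.78 ± 0.09, edgeR adjusted p = 4.9e-05). Axin2, a scaffold of the complex that destroys β-catenin, measured 21.2, 20.9 and 21.8 CPM in control and 36.2, 32.6 and 34.0 CPM with LiCl, a 1.61-fold rise (0.68 ± 0.15, edgeR adjusted p = 0.00879). Apcdd1, a membrane inhibitor of Wnt reception, and Cd44, a hyaluronan receptor, rose 1.80-fold and 2.06-fold. In all 6 of these genes, every LiCl pool lay above every control pool.

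Other members fell or did not pass. Ccnd1, which encodes cyclin D1 and is often listed as a target, fell from 223 ± 11.8 to 169 ± 9.50 CPM (log2 fold change -0.40, edgeR adjusted p = 0.00645). Lgr6, a receptor for R-spondins, fell from 11.1 ± 2.10 to 5.33 ± 0.91 CPM (-1.03, edgeR adjusted p = 0.00221). Lef1, one of the transcription factors, measured 20.7, 22.5 and 22.2 CPM in control and 39.0, 29.1 and 40.3 CPM with LiCl (0.73, edgeR adjusted p = 0.0184). It did not pass without LiCl pool 1 (0.0657), LiCl pool 3 (0.0876) or control pool 1 (0.0603). Znrf3, a membrane ubiquitin ligase that removes Wnt receptors, was 1.60-fold higher (edgeR adjusted p = 0.0301), and without LiCl pool 1, 2 or 3 its adjusted p was 0.0869, 0.071 and 0.0793. Tcf7 and Lgr5, a transcription factor and a stem cell receptor, showed log2 fold changes of 0.10 and -0.16 and did not pass, and their pools overlapped. Over the fits without 1 library, 6 to 8 of the 22 genes were higher and 2 to 6 lower.

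The promoters of a pair of these feedback genes are printed because each holds the letters that TCF/LEF factors are known to bind. The windows are the 250 bases before the annotated start in the RefSeq rat annotation (build GRCr8), read along the strand of the gene, and the capitals mark CTTTGA or its reverse complement TCAAAG. Axin2 lies on chromosome 10 (chr10:94398535-94398784, plus strand) and has 2 matches that begin 232 and 132 bases before the start. Nkd1 lies on chromosome 19 (chr19:34722847-34723096, minus strand) and has 1 match that begins 141 bases before the start.
Axin2: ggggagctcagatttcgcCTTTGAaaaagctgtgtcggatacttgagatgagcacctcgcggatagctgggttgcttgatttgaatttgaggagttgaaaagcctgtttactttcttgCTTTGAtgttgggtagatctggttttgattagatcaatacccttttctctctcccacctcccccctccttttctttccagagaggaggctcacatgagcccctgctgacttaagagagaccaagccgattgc
Nkd1: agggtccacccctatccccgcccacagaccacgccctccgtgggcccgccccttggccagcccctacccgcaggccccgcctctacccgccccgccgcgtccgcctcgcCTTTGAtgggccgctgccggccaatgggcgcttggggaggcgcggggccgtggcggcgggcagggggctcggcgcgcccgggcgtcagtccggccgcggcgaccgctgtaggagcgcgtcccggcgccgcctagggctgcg
Among called genes with a window in the table, the letters were present in 11 of 71 higher genes (15.5%) and 7 of 68 lower genes (10.3%). They were present in 973 of 9491 genes tested (10.3%), in 4656 of all 33469 windows (13.9%) and in 5 of 15 members of the Wnt list (33.3%). A match is only a match of letters and was not tested for binding.

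Secreted antagonists of Wnt, listed here with the membrane protein Kremen1, moved in both directions. Of 9 measured, 4 fell and 3 rose (median log2 fold change -0.44), and their summed level went from 761 to 823 CPM in the control pools to 452 to 472 CPM in the LiCl pools. Frzb, a decoy for Wnt ligands in cartilage, measured 215, 256 and 281 CPM in control and 58.7, 60.4 and 64.9 CPM with LiCl, so it was 4.09-fold lower (-2.03 ± 0.16, edgeR adjusted p = 1.5e-06). Sfrp2, another ligand-binding decoy, measured 93.1, 100.5 and 86.6 CPM in control and 38.4, 38.7 and 37.1 CPM with LiCl (-1.29 ± 0.08, edgeR adjusted p = 2.7e-07). In both genes the highest LiCl pool lay well under the lowest control pool. Sfrp5 fell from 49.2 ± 11.2 to 23.6 ± 2.64 CPM and Dkk3 from 165 ± 12.7 to 95.2 ± 3.97 CPM (edgeR adjusted p = 0.00233 and 3.8e-04). Wif1, which also binds Wnt ligands, rose from 16.7 ± 2.83 to 29.5 ± 1.19 CPM (edgeR adjusted p = 5.4e-04). Kremen1 and Dkk2, which act together on the Wnt co-receptors, rose 1.51-fold and 1.33-fold (edgeR adjusted p = 0.00183 and 0.0054).

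Wnt ligands, R-spondins and receptors changed less. Of 24 measured, 2 were higher and 6 lower, none was called, and the median log2 fold change was -0.06. Rspo3, which amplifies Wnt signals, fell from 24.7 ± 1.84 to 15.2 ± 1.89 CPM, and the receptors Ror1 and Fzd4 fell by 0.50 and 0.52 on the log2 scale. Wnt5a, a ligand of the branch that acts without β-catenin, rose from 78.4 ± 1.14 to 98.1 ± 3.24 CPM (edgeR adjusted p = 0.00753), and Lrp4, a relative of the Wnt co-receptors, rose 1.34-fold (edgeR adjusted p = 0.01).

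The known targets of lithium did not pass the test. Of 11 measured lithium-sensitive enzymes and genes of inositol supply, 0 passed by edgeR, with or without the replicate block, or by DESeq2. At an unadjusted p under 0.05 the count was also 0, and the list's median log2 fold change was -0.00. Gsk3b measured 131, 109 and 125 CPM in control and 133, 117 and 129 CPM with LiCl (0.05 ± 0.08, edgeR adjusted p = 0.753). Gsk3a, the other form of the kinase, measured 105 ± 9.88 and 102 ± 4.82 CPM, and Impa1, inositol monophosphatase, 48.4 ± 3.32 and 52.5 ± 3.43 CPM. The pools overlapped in these 3 genes. Ctnnb1, which encodes β-catenin, measured 850.5, 845 and 827 CPM in control and 728, 722 and 723 CPM with LiCl. The pools did not overlap, but the gene missed the threshold (-0.22 ± 0.07, edgeR adjusted p = 0.0664) and passed with the replicate block (adjusted p = 0.0376) and by DESeq2 (adjusted p = 3.0e-04). Enzyme activity and β-catenin protein are not measured by RNA counts.

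**Figure D2:**
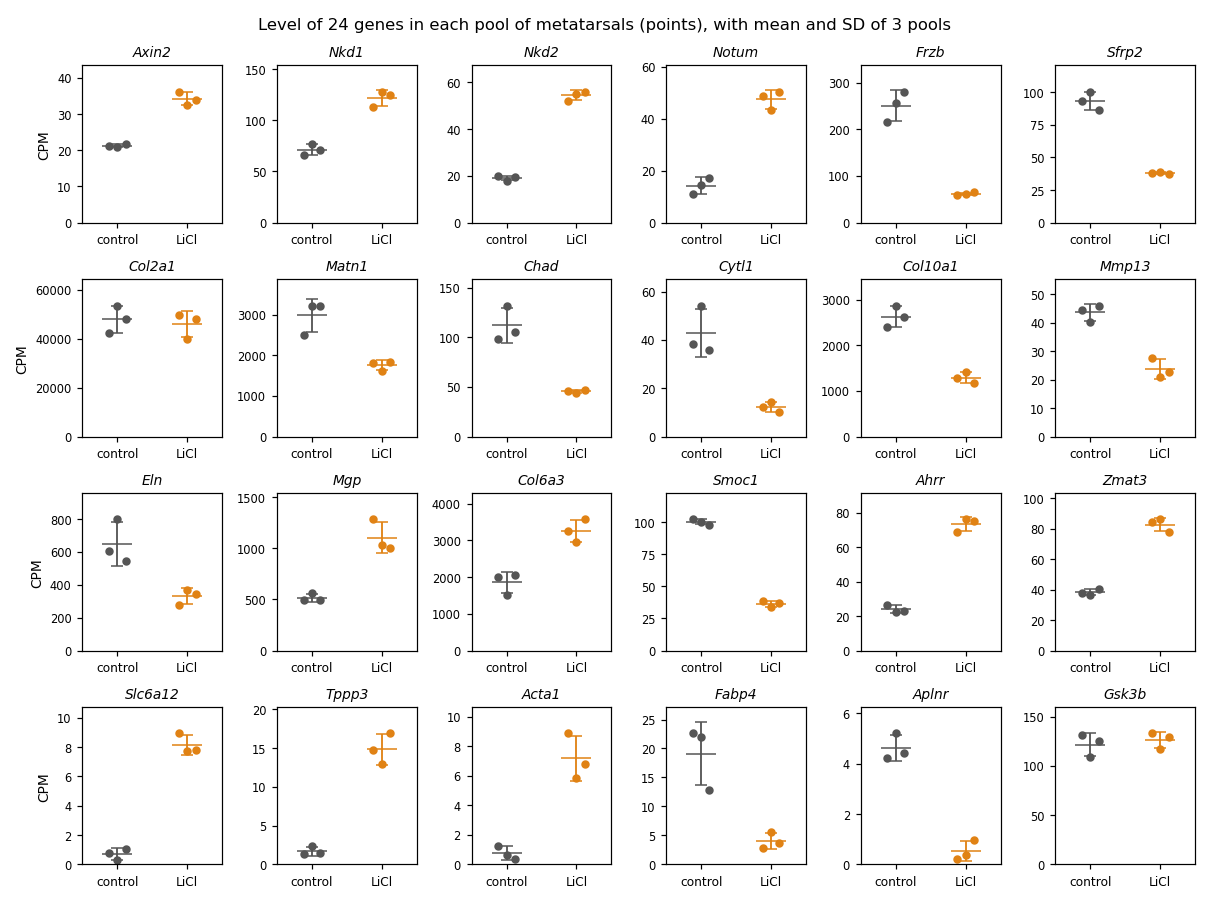
Each panel shows 1 gene, with its level in CPM from 0 upward in the 3 control pools (grey) and 3 LiCl pools (orange), and a bar and whiskers for the mean and SD. Notum, Nkd2, Ahrr and Tppp3 rise clear of control, Frzb, Sfrp2, Chad and Col10a1 fall clear of it, and Col2a1 and Gsk3b overlap.

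Cartilage genes split into those for the bulk of the matrix, which did not pass, and a set of other secreted proteins, which fell. Of 25 measured, 9 were lower and 1 higher, in every fit without 1 library 9 or 10 were lower, and the median log2 fold change was -0.09. Col2a1 measured 42547, 53639.9 and 48005 CPM in control and 49731, 40109 and 48297 CPM with LiCl, with overlapping pools (-0.06 ± 0.22, edgeR adjusted p = 0.894). Acan, the main cartilage proteoglycan, measured 6096 ± 772 and 6099.8 ± 1099 CPM, and Sox9, the master transcription factor of chondrocytes, 355 ± 42.9 and 304 ± 30.1 CPM. Comp, Col9a1 and Hapln1 did not pass either.

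The 9 genes that fell encode secreted proteins. Chad, a leucine-rich protein that anchors chondrocytes to collagen, measured 98.7, 132 and 105 CPM in control and 46.3, 43.5 and 46.4 CPM with LiCl (2.46-fold lower, -1.30 ± 0.11, edgeR adjusted p = 2.3e-06). Epyc, a small leucine-rich proteoglycan of the growth plate, fell from 512 ± 14.7 to 302 ± 18.8 CPM (edgeR adjusted p = 3.1e-05). Also lower were 3 matrilins, adaptor proteins between collagen and proteoglycan. Matn1 measured 2500.4, 3217 and 3226 CPM in control and 1823, 1625 and 1845 CPM with LiCl (-0.76 ± 0.16, edgeR adjusted p = 0.00587). Matn3 fell from 1181 ± 64.3 to 859.7 ± 30.8 CPM and Matn4 from 260.4 ± 36.1 to 145 ± 20.6 CPM. Ucma, a secreted protein of young chondrocytes, fell from 453 ± 60.6 to 273 ± 31.1 CPM. Cytl1, a small secreted factor of cartilage, measured 38.2, 54.2 and 36.0 CPM in control and 12.3, 14.1 and 9.98 CPM with LiCl, 3.54-fold lower (-1.81 ± 0.31, edgeR adjusted p = 0.00154). Cilp and Cilp2, proteins of the middle layer of cartilage, were 2.04-fold and 1.87-fold lower. None of these genes had overlapping groups. Because whole rudiments were sequenced, fewer cells of a type and less RNA per cell cannot be told apart here or in any later result.

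Fgfr3, the receptor through which FGF slows chondrocyte division, was the 1 gene of this list that rose. It measured 543, 574 and 646 CPM in control and 829, 755 and 792 CPM with LiCl (1.35-fold, 0.43 ± 0.10, edgeR adjusted p = 0.00894), and the groups did not overlap.

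Col10a1 led the fall among hypertrophic genes. This gene encodes type X collagen, and it measured 2406, 2875 and 2613 CPM in control and 1293, 1412 and 1180.4 CPM with LiCl (2.03-fold lower, -1.02 ± 0.15, edgeR adjusted p = 5.4e-04). Mmp13, the collagenase of terminal chondrocytes, measured 44.6, 40.3 and 46.1 CPM in control and 27.7, 20.9 and 22.6 CPM with LiCl (-0.89 ± 0.16, edgeR adjusted p = 0.00229). Spp1, which encodes osteopontin, fell from 79.5 ± 15.7 to 51.5 ± 8.36 CPM (edgeR adjusted p = 0.0066). The groups did not overlap in these 3 genes. Of 21 measured hypertrophic genes, 4 were lower and 0 higher, and 3 or 4 were lower in each fit without 1 library. The replicate block gave 6 lower and 1 higher. The main signals that control hypertrophy did not pass. Ihh, the Hedgehog ligand of prehypertrophic cells, measured 124 ± 14.7 and 131 ± 8.41 CPM, and Runx2, the transcription factor that drives the program, 256 ± 18.6 and 228 ± 11.1 CPM. Pth1r, the receptor for parathyroid hormone-related protein, measured 382 ± 20.4 and 307 ± 36.4 CPM.

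Of 14 measured osteoblast genes, 3 were lower, 0 higher and the median log2 fold change was -0.33. In the fits without 1 library, 1 to 4 were lower, and the replicate block gave 6. Col1a1, which encodes the main collagen of bone, measured 17219, 17670.1 and 13657 CPM in control and 10921, 10658 and 12127 CPM with LiCl. The groups did not overlap, and the adjusted p of edgeR was 0.0505. It was 0.0217 with the block, 0.0081 by DESeq2, 0.0477 with RLE scaling, 0.0483 with filterByExpr, 0.00123 without a filter, 0.0245 with 6 libraries and 0.0491 with thinned counts. Of the 6 fits without 1 library, Col1a1 passed in the fit without control pool 3 (0.0319). Ibsp, bone sialoprotein, measured 521 ± 82.2 and 312 ± 76.2 CPM and did not pass (edgeR adjusted p = 0.19). It passed with the block (0.0185), without a count filter (0.0023) and with 6 libraries in the fit (0.0243).

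In the Hedgehog pathway, 15.8% of the measured members passed the test, against 10.6% of all genes tested. Of 19 measured members, 1 rose and 2 fell. Scube2, which helps release the lipid-bearing ligand from cells, measured 38.2, 31.8 and 33.1 CPM in control and 14.1, 15.1 and 14.5 CPM with LiCl (-1.24 ± 0.13, edgeR adjusted p = 2.3e-05). Hhat, the enzyme that attaches palmitate to the ligand, fell 1.58-fold (edgeR adjusted p = 0.00795). Gli1, the usual target gene, measured 284 ± 18.1 and 330.0 ± 6.91 CPM with no overlap and missed the threshold of edgeR (adjusted p = 0.0833) but not that of DESeq2 (0.0222), while Ptch1 overlapped.

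Genes of the elastic fiber, the stretchable part of connective tissue, were more often lower than higher. Of 25 measured, 12 were lower and 2 higher, with a median log2 fold change of -0.30. Without 1 library, 7 to 12 were lower. Eln, which encodes elastin, measured 607, 798 and 544 CPM in control and 278, 371 and 346 CPM with LiCl (-0.97 ± 0.13, edgeR adjusted p = 2.8e-04). Fbln5, a fibulin needed to assemble elastin, fell from 93.6 ± 14.3 to 45.2 ± 2.86 CPM, and Fbln2 from 330.0 ± 33.0 to 229 ± 11.6 CPM. Lox, the enzyme that crosslinks elastin and collagen, fell from 464 ± 23.3 to 298 ± 36.8 CPM. The latent TGF-β binding proteins Ltbp1 and Ltbp2 fell by 0.73 and 0.85 on the log2 scale, and Adamtsl2, a microfibril-binding protein, by 1.54. Each of these 7 genes had an edgeR adjusted p of 0.0013 or less, and their groups did not overlap. Mgp, an inhibitor of cartilage and vessel calcification that the list also holds, went the other way. It measured 493, 563 and 495 CPM in control and 1284, 1029 and 1008 CPM with LiCl, a 2.14-fold rise (1.10 ± 0.11, edgeR adjusted p = 1.1e-05).

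Collagens outside the cartilage network changed in both directions. Of 32 measured, 7 were higher and 10 lower. The 3 main chains of type VI collagen, the beaded filament around cells, rose. Col6a3 measured 1995, 1513 and 2054 CPM in control and 3245, 2957 and 3570.1 CPM with LiCl (1.76-fold, 0.81 ± 0.14, edgeR adjusted p = 0.00144). Col6a2 rose from 1063 ± 60.3 to 1539 ± 24.9 CPM and Col6a1 from 1458 ± 83.1 to 1944 ± 66.7 CPM. Col6a5, a minor chain, fell from 4.95 ± 1.34 to 1.94 ± 0.487 CPM (edgeR adjusted p = 0.00382). Col18a1 and Col15a1, of the basement membrane zone, rose 1.65-fold and 2.10-fold, while the basement membrane chains Col4a1 and Col4a2 had log2 fold changes of 0.06 each and did not pass. Col7a1, the anchoring fibril under epithelia, went from 0.81, 1.49 and 1.41 CPM to 6.57, 5.93 and 6.93 CPM (5.24-fold, edgeR adjusted p = 2.0e-06). Among those that fell, Col26a1 measured 70.9, 71.0 and 59.3 CPM in control and 27.9, 29.7 and 27.8 CPM with LiCl (-1.23 ± 0.09, edgeR adjusted p = 8.3e-07). Col16a1 fell from 2099.8 ± 121 to 1393 ± 18.9 CPM, Col5a2 from 1725 ± 103 to 1312 ± 57.8 CPM, and Col13a1 and Col24a1 were 1.93-fold and 1.62-fold lower. Leprel1, a prolyl hydroxylase that modifies collagen chains, rose 2.12-fold from 58.6 ± 6.08 to 124 ± 15.2 CPM (edgeR adjusted p = 2.0e-05).

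Matrix proteases leaned lower. Of 31 measured proteases and inhibitors, 10 were lower and 1 higher, and 8 to 10 were lower in the fits without 1 library. Mmp3, stromelysin, measured 44.6, 49.8 and 37.1 CPM in control and 10.1, 9.07 and 7.36 CPM with LiCl, 4.96-fold lower (-2.31 ± 0.17, edgeR adjusted p = 6.6e-07). Mmp11 fell from 23.1 ± 3.26 to 10.8 ± 1.03 CPM and Adamts6 from 42.4 ± 6.72 to 19.7 ± 1.96 CPM. Timp3, a matrix-bound inhibitor, fell 1.30-fold. Mmp2, gelatinase A, was the exception and rose from 718 ± 61.0 to 1078 ± 75.2 CPM (edgeR adjusted p = 0.00147). Heparan sulfate chains, which hold growth factors in the matrix, are shaped by sulfating enzymes, and of 16 such genes 4 were lower and 1 higher. Hs6st2 measured 54.9, 51.2 and 50.8 CPM in control and 22.9, 20.5 and 20.6 CPM with LiCl (-1.30 ± 0.09, edgeR adjusted p = 4.6e-07). Sulf1, which removes sulfate outside the cell, fell 1.44-fold, and Hs3st6 rose from 1.11 ± 0.216 to 4.07 ± 0.589 CPM.

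BMP signaling had 34 measured members, of which 11 were lower and 6 higher (median log2 fold change -0.18). In the fits without 1 library, 8 to 12 were lower and 2 to 4 higher. Of the 8 that held in each of those fits, 6 encode secreted modulators and 2 encode ligands. Smoc1, a matricellular protein that can restrain BMP, measured 102, 100.4 and 98.0 CPM in control and 38.2, 33.5 and 37.1 CPM with LiCl (2.76-fold lower, -1.47 ± 0.13, edgeR adjusted p = 5.7e-06). Its relative Smoc2 fell from 216 ± 13.0 to 111 ± 4.80 CPM. The BMP antagonists Fst, Chrd and Nog fell 2.15-fold, 1.61-fold and 1.47-fold (edgeR adjusted p = 3.8e-04, 0.00198 and 0.0025). Grem1, another antagonist, rose instead, from 25.9, 19.2 and 28.1 CPM to 58.0, 38.4 and 39.9 CPM (edgeR adjusted p = 0.00203). Among ligands, Bmp4 rose from 22.7 ± 2.25 to 32.6 ± 1.53 CPM and Gdf10 fell from 144 ± 6.88 to 65.9 ± 13.7 CPM. The groups did not overlap in any of these genes. The BMP target genes Id1, Id2 and Id3 had log2 fold changes of -0.00, 0.19 and 0.22 and did not pass.

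In other growth factor lists, few changes passed in every fit without 1 library. Their shares past the main test were above the 10.6% of all genes tested. They were 15.8% for TGF-β and activin, 29.4% for FGF, 31.2% for insulin-like growth factors and 18.8% for Notch. In the TGF-β and activin list, 2 of 19 genes were higher and 1 lower, and the replicate block gave 3 in each direction. Inhbb, a subunit of activin, rose 1.85-fold (edgeR adjusted p = 0.00201). In the FGF list, 2 of 17 were higher and 3 lower, and Fgfr3, described above, and Fgf12, an intracellular relative of the ligands (fell by 1.07 on the log2 scale, edgeR adjusted p = 0.00704) held in every fit without 1 library. In the axis of insulin-like growth factors, 5 of 16 were lower and 0 higher, with 1 to 5 lower without 1 library. Igfbp3, a binding protein that limits the growth factors, fell from 154 ± 30.6 to 92.2 ± 4.34 CPM (edgeR adjusted p = 0.00189). The ligands Igf1 and Igf2 measured 204 ± 22.3 and 9742 ± 851 CPM in control and 224 ± 18.0 and 11897 ± 267 CPM with LiCl and did not pass by edgeR, though Igf2 passed by DESeq2 (adjusted p = 0.015). Of 16 Notch genes, 1 was higher and 2 lower, 2 and 3 with the block, and between 0 and 2 passed in any fit without 1 library.

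The aryl hydrocarbon receptor (AhR) is a ligand-activated transcription factor best known for its response to dioxins and plant compounds. Of 10 measured genes of its pathway, 5 rose and 0 fell, and 5 or 6 were higher in every fit without 1 library. Ahr itself measured 12.3, 8.54 and 8.56 CPM in control and 28.9, 24.1 and 24.3 CPM with LiCl (2.62-fold, 1.37 ± 0.18, edgeR adjusted p = 1.6e-04). Ahrr, the repressor that the receptor induces, measured 26.6, 22.4 and 23.2 CPM in control and 69.0, 76.0 and 75.1 CPM with LiCl (3.05-fold, 1.60 ± 0.13, edgeR adjusted p = 1.8e-06). Tiparp, which turns the receptor over, rose from 28.7 ± 2.28 to 45.5 ± 5.58 CPM. Nqo1, a quinone reductase, rose from 75.7 ± 13.7 to 148 ± 14.2 CPM, and Aox1, aldehyde oxidase, from 20.9 ± 1.66 to 50.1 ± 0.466 CPM. Every LiCl pool lay above every control pool in these 5 genes. Cyp1a1, the classical target, measured 10.7, 8.82 and 8.41 CPM in control and 6.50, 7.76 and 9.93 CPM with LiCl, and Cyp1b1 measured 34.5 ± 10.7 and 39.8 ± 5.92 CPM. Both overlapped and did not pass (edgeR adjusted p = 0.6 and 0.505). Nqo1 is also a target of the antioxidant factor NFE2L2, and in that list 2 of 17 were higher and 2 lower. Me1, malic enzyme, rose 1.70-fold, and Hmox1, Gclm and Txnrd1 had log2 fold changes of 0.19, 0.03 and 0.02 and did not pass.

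The windows of Ahrr and Tiparp are printed because both hold the core letters of the AhR binding element. Capitals mark GCGTG or its reverse complement CACGC in the 250 bases before the start (RefSeq, build GRCr8). Ahrr lies on chromosome 1 (chr1:30821969-30822218, plus strand), with 3 matches that begin 142, 117 and 57 bases before the start. Its window also holds TCAAAG, apart from the 3 matches. Tiparp lies on chromosome 2 (chr2:152063519-152063768, plus strand), with 1 match that begins 136 bases before the start.
Ahrr: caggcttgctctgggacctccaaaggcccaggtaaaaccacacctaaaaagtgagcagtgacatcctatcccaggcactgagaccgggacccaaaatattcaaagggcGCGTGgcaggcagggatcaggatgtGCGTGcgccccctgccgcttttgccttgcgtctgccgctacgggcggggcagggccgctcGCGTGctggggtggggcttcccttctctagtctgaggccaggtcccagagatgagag
Tiparp: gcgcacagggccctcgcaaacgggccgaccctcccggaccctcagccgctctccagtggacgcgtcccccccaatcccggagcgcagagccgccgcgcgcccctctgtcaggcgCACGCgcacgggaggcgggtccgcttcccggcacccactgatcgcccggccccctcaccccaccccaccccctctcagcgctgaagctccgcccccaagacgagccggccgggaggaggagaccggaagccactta
These short letters are common. They were present in 26 of 71 called higher genes (36.6%), 16 of 68 called lower genes (23.5%), 4315 of 9491 genes tested (45.5%) and 8666 of all 33469 windows (25.9%), and in 5 of 8 windows of the AhR list (62.5%).

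Targets of p53, the factor activated by DNA damage and other stress, leaned higher. Of 24 measured, 7 were higher and 0 lower (median log2 fold change 0.21), with 7 or 8 higher in each fit without 1 library. Eda2r, a receptor of the tumor necrosis factor family, measured 1.58, 2.69 and 1.51 CPM in control and 9.58, 9.23 and 7.94 CPM with LiCl (4.63-fold, 2.27 ± 0.30, edgeR adjusted p = 1.9e-04). Zmat3, an RNA-binding protein, measured 38.0, 36.3 and 40.5 CPM in control and 84.4, 86.1 and 77.6 CPM with LiCl (1.11 ± 0.10, edgeR adjusted p = 7.5e-06). Cdkn1a, the cell cycle inhibitor p21, rose from 76.7 ± 2.09 to 138 ± 8.65 CPM (edgeR adjusted p = 3.6e-04). Ccng1 and the nuclease Aen rose 1.79-fold and 2.06-fold, and Bax and Phlda3, which promote cell death, 1.43-fold and 1.41-fold. The groups did not overlap in any of the 7. Mdm2, which degrades p53 and is itself induced by it, measured 74.9 ± 4.95 and 85.5 ± 1.21 CPM without overlap and did not pass (edgeR adjusted p = 0.215). Of 26 cell cycle and replication genes, 1 was higher and 0 lower, with 3 higher and 2 lower under the block. Mki67 and Pcna, markers of dividing cells, overlapped and did not pass.

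Lithium enters cells in place of sodium, so genes of salt and excitability were read next. Slc6a12, the betaine transporter that kidney cells use against high salt, measured 0.81, 0.279 and 1.06 CPM in control and 8.93, 7.71 and 7.80 CPM with LiCl, 11.4-fold higher (3.37 ± 0.28, edgeR adjusted p = 2.6e-06). Nfat5, the osmotic stress factor, and Slc5a3, the inositol transporter, measured 510.0 ± 129 and 6.81 ± 3.50 CPM in control and 580.2 ± 23.7 and 5.87 ± 0.506 CPM with LiCl. Both overlapped and did not pass. Aqp1, a water channel, fell 1.56-fold from 413 ± 68.1 to 265 ± 12.8 CPM (edgeR adjusted p = 9.5e-04). Over the list, 2 of 10 were higher and 2 lower. Among 19 sodium pump and transport genes, 1 was higher and 2 lower, with 3 in each direction under the block. Slc6a2, the noradrenaline transporter and a called gene outside this list, rose from 0.961 ± 0.59 to 4.89 ± 0.689 CPM (edgeR adjusted p = 5.0e-04).

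Of 22 measured potassium channel genes, 5 were higher and 2 lower, and 2 to 4 were higher without 1 library. Kcnj6, an inward rectifier opened by G proteins, measured 1.04, 1.58 and 1.61 CPM in control and 9.79, 7.92 and 6.63 CPM with LiCl (5.76-fold, 2.54 ± 0.24, edgeR adjusted p = 8.6e-06). Kcna6 rose from 47.6 ± 1.69 to 84.9 ± 7.83 CPM, and Kcnj8, a channel that closes with ATP, fell 1.96-fold. Synaptic adhesion genes, whose proteins join nerve cells but also occur elsewhere, were more often lower, with 10 of 26 lower and 2 higher (6 to 9 lower without 1 library). Lrrn1 measured 37.5, 32.6 and 30.4 CPM in control and 11.2, 10.3 and 11.7 CPM with LiCl (-1.60 ± 0.11, edgeR adjusted p = 6.6e-07). Nrxn2, Slitrk2, Lrrtm2 and Lrrn3 fell 2.97-fold, 2.55-fold, 2.98-fold and 1.61-fold, all without overlap. Clstn2, a calsyntenin, rose from 32.6 ± 7.18 to 73.6 ± 1.84 CPM (edgeR adjusted p = 1.0e-04). Of 10 glutamate receptor genes, Gria3 rose 2.15-fold and Grik3 fell 2.62-fold, and the other 8 did not pass. The neuron markers measured were few, at 3 of 12 listed, and 2 were lower. Nefm, a neurofilament gene, fell from 6.47 ± 0.657 to 2.25 ± 0.424 CPM. Its part in the synaptic results was not tested.

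Most measured skeletal muscle genes were higher, from low levels. Of 18 measured sarcomere and contraction genes, 12 were higher and 2 lower (median log2 fold change 0.95), and 8 to 12 were higher without 1 library. Another 10 of the 28 listed genes lay below the count filter. Acta1, Actc1 and Myl1 were too sparse in the control pools to pass that filter there, and passed it through libraries with LiCl. The filter thus favored a rise in such genes, and the share higher and the median carry that selection. The summed level of the list was 140.0 to 147 CPM in control and 202 to 218 CPM with LiCl. Acta1, skeletal actin, measured 1.26, 0.65 and 0.353 CPM in control and 8.86, 5.87 and 6.78 CPM with LiCl, 9.51-fold higher (3.17 ± 0.31, edgeR adjusted p = 1.3e-05). Myh3, the embryonic myosin heavy chain, rose from 1.61 ± 0.717 to 11.7 ± 3.34 CPM, and Actc1, cardiac actin, from 1.38 ± 0.833 to 7.97 ± 2.89 CPM. The light chain Myl1 measured 0.765, 0.743 and 0.756 CPM in control and 3.93, 3.57 and 4.31 CPM with LiCl (edgeR adjusted p = 2.5e-05). Mybpc1, Srl and Tnnt3 rose 2.73-fold, 2.11-fold and 1.60-fold. In each of these genes the LiCl pools lay above the control pools. The transcription factors that make muscle were below the count filter. Myod1 had 6 counts over the control libraries and 33 over the LiCl libraries, Myog had 38 and 103, and Pax7 had 0 in both. Itga7, an integrin of muscle fibers and their stem cells, fell 2.03-fold (edgeR adjusted p = 0.00355). Among smooth muscle genes, Acta2 and Myh11 rose 1.82-fold and 1.91-fold, 2 of 4 measured, and Tagln and Smtn had log2 fold changes of -0.52 and -0.15 and did not pass, although Tagln passed with the block (adjusted p = 0.00105), by DESeq2 (0.0387), without a filter (0.00217), with thinned counts (0.0243) and without LiCl pool 2 (0.041).

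A pair of tubulin-binding genes were among the 20 largest rises. Tppp3, a tubulin polymerization protein, measured 1.31, 2.32 and 1.46 CPM in control and 14.8, 12.9 and 16.9 CPM with LiCl, 8.76-fold higher (3.20 ± 0.19, edgeR adjusted p = 2.7e-07). Its relative Tppp measured 0.675, 0.279 and 1.56 CPM in control and 5.50, 6.50 and 7.89 CPM with LiCl (7.91-fold, edgeR adjusted p = 1.0e-04). Of 19 measured TPPP and microtubule-binding genes, 3 were higher and 2 lower, with a median log2 fold change of 0.09. Of 13 measured motile cilium genes, which include Tppp3, 6 were higher and 1 lower, and 4 to 6 were higher without 1 library. Ppil6, Cfap43 and Ubxn11 rose 3.26-fold, 2.46-fold and 2.16-fold. Tppp3, Ppil6 and Cfap43 were too sparse in the control pools to pass the count filter there, and passed it through libraries with LiCl. The filter thus favored a rise in such genes, and the share higher carries that selection. Another 23 of the 37 listed genes lay below the filter, and Foxj1, the master factor of motile cilia, had a log2 fold change of -0.10 and did not pass. Genes of the primary cilium, the single sensory cilium of chondrocytes, gave 0 of 29 higher and 2 lower, and 2 and 3 with the block. At an unadjusted p under 0.05 there were 3 in each direction.

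Adipocyte genes had the lowest median of the 57 lists. Of 8 measured, 6 were lower and 0 higher (median log2 fold change -1.61), and the summed level was 69.4 to 99.8 CPM in control and 37.5 to 40.7 CPM with LiCl. Another 9 of the 17 listed genes lay below the count filter. Adipoq and Gpd1 were too sparse in the LiCl pools to pass that filter there, and passed it through control libraries. The filter thus favored a fall in such genes, and the rank, the share lower and the median carry that selection. Adipoq, the fat cell hormone adiponectin, measured 5.00, 6.87 and 2.42 CPM in control and 0.0715, 0 and 0 CPM with LiCl. Those values are 233 counts over the control libraries and 1 count over the LiCl libraries, after allowance for depth a ratio of 235 with a 95% counting interval of 41.7 to 9308 (edgeR adjusted p = 3.4e-05). Gpd1, the glycerol phosphate dehydrogenase of fat synthesis, measured 10.7, 5.94 and 5.44 CPM in control and 0.643, 0.262 and 0.533 CPM with LiCl (edgeR adjusted p = 8.6e-06). Fabp4, a fatty acid carrier, fell 4.70-fold from 19.1 ± 5.43 to 4.07 ± 1.41 CPM, and Cfd and Car3 fell 2.48-fold and 3.78-fold. The groups did not overlap in these 5 genes. Cebpa and Dgat2, also active in other cells, had log2 fold changes of -0.37 and -0.10 and did not pass.

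Some markers of bone-resorbing cells, macrophages and vessels were also lower. Of 6 measured osteoclast genes, 5 were lower, but only Ctsk, cathepsin K, held in every fit without 1 library (103 ± 7.78 to 76.7 ± 4.23 CPM, edgeR adjusted p = 0.00498). Their sum was 286 to 300.5 CPM in control and 196 to 239.5 CPM with LiCl. Of 17 macrophage genes, 6 were lower and 0 higher, with 3 to 11 lower without 1 library. Cd68, Aif1 and Laptm5 fell 1.60-fold, 2.23-fold and 1.57-fold, and the complement gene C1qa overlapped and did not pass (edgeR adjusted p = 0.128). The macrophage sum was 141 to 214 CPM in control and 123 to 129 CPM with LiCl. Of 20 endothelial genes, 3 were lower (15.0%, against 5.90% of all genes tested). Aplnr, the apelin receptor of sprouting vessels, measured 4.23, 5.20 and 4.43 CPM in control and 0.214, 0.367 and 0.969 CPM with LiCl, 8.94-fold lower (-3.04 ± 0.42, edgeR adjusted p = 3.3e-04). Aplnr was too sparse in the LiCl pools to pass the count filter there and passed it through control libraries, so the filter favored its fall. Egfl7 fell 1.59-fold, and Plvap was 2.64-fold lower (edgeR adjusted p = 0.00894, and 0.0506 without LiCl pool 3). The general vessel markers Pecam1 and Cdh5 measured 32.9 ± 7.67 and 55.4 ± 1.30 CPM in control and 28.2 ± 4.44 and 52.6 ± 2.94 CPM with LiCl, with overlap. Epidermis and red blood cell genes gave 0 of 5 and 0 of 4 past the test of edgeR, of DESeq2 and under the block, and at an unadjusted p under 0.05 the counts were 1 and 0. Schwann cell genes gave 0 of 4 by edgeR, and 2 lower under the block, by DESeq2 and at an unadjusted p under 0.05.

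**Figure D3:**
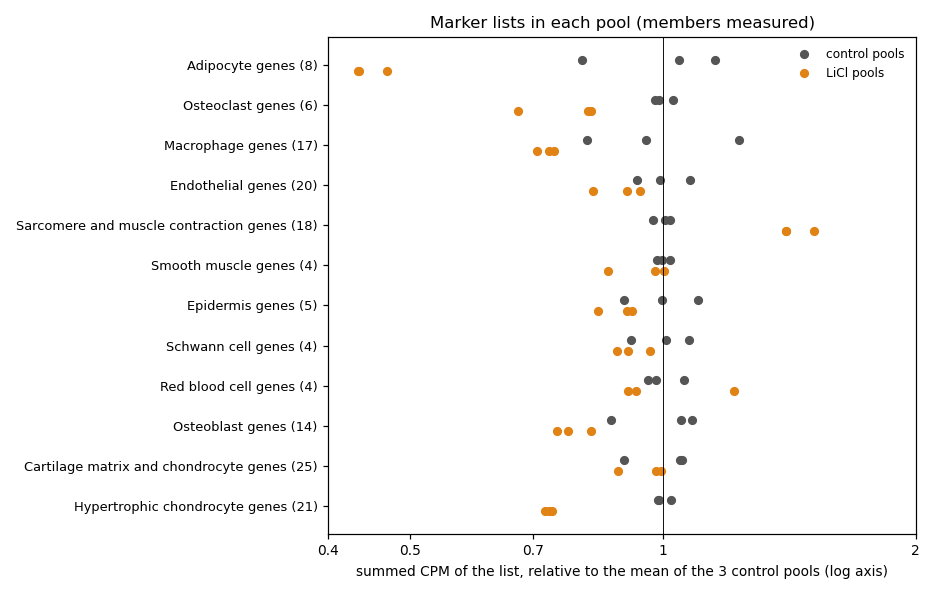
Each row is a list of marker genes, with the number measured in parentheses, and each point is the summed CPM of that list in 1 pool divided by the mean of the 3 control pools (log axis, control grey and LiCl orange). Adipocyte, osteoclast, macrophage, hypertrophic and osteoblast sums lie below control in all 3 LiCl pools, sarcomere sums lie above it, and cartilage, Schwann cell and red blood cell sums overlap. A sum mostly follows its abundant members, such as Col10a1 in the hypertrophic list and Col1a1 in the osteoblast list.

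Markers of tendon and joint tissue, which adheres to the rudiments, numbered 12, of which 3 were lower and 1 higher. Without 1 library 0 to 4 were lower, so only Dpt, which encodes the fibroblast matrix protein dermatopontin and had a log2 fold change of 1.09, held throughout. The summed level of the list was 1822 to 1973 CPM in control and 1498 to 1584 CPM with LiCl. The part of these tissues in the cartilage and matrix results was not tested.

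Metabolic genes changed in both directions. Of 23 glycolysis and glucose transport genes, 5 were higher and 2 lower (median log2 fold change 0.41). Without 1 library 2 to 6 were higher, and the replicate block gave 11. Pfkp, a form of phosphofructokinase, measured 29.3, 29.7 and 29.8 CPM in control and 65.9, 73.0 and 91.0 CPM with LiCl (2.59-fold, 1.38 ± 0.18, edgeR adjusted p = 2.3e-04). Eno3, muscle enolase, fell from 39.4 ± 5.70 to 18.0 ± 3.34 CPM (edgeR adjusted p = 1.3e-04), and Pgam2 rose 1.65-fold. Slc2a1, the glucose transporter GLUT1, and Ldha, lactate dehydrogenase, overlapped and did not pass. Both passed with the block (edgeR adjusted p = 0.0343 and 0.0206) and without a count filter (0.00145 and 0.00397), and Slc2a1 also without LiCl pool 1 (0.0454). Of 18 genes of hypoxia and its factors, 4 were higher, and 9 with the block. Car12, a membrane carbonic anhydrase, measured 35.1, 33.3 and 44.3 CPM in control and 102, 119 and 111 CPM with LiCl (2.95-fold, 1.55 ± 0.17, edgeR adjusted p = 4.1e-05). Egln3, an oxygen sensor that hypoxia induces, went from 6.17, 8.91 and 5.89 CPM to 12.4, 22.0 and 20.8 CPM (edgeR adjusted p = 0.00397). Vegfa, the main hypoxia-induced vessel factor, measured 372, 516 and 457 CPM in control and 418, 702 and 746 CPM with LiCl and did not pass.

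Cholesterol synthesis genes leaned higher, with 8 of 21 higher and 0 lower, and 2 to 7 were higher in the fits without 1 library. Stard4, a sterol carrier, measured 26.7, 20.8 and 28.1 CPM in control and 37.7, 40.6 and 42.5 CPM with LiCl, a 1.60-fold rise without overlap (0.67 ± 0.11, edgeR adjusted p = 0.00119). Genes that ATF4 induces in amino acid shortage leaned lower, with 9 of 25 lower and 0 higher (13 lower and 1 higher with the block, 4 to 8 lower without 1 library). Mthfd2, of mitochondrial folate metabolism, fell from 91.8 ± 2.48 to 65.0 ± 3.48 CPM, and Psat1 and Asns, of serine and asparagine synthesis, fell 1.28-fold and 1.38-fold. Cebpb, a transcription factor of the same response, fell 1.88-fold. Atf4 itself measured 409 ± 39.2 and 350.5 ± 6.52 CPM and did not pass. Cytosolic aminoacyl-tRNA synthetases gave 0 of 18 past the test of edgeR and of DESeq2. At an unadjusted p under 0.05, 1 was higher and 3 lower. Of 17 clock genes, 3 were higher and 1 lower. Per1, Per2 and Arntl rose 1.56-fold, 1.44-fold and 1.39-fold (edgeR adjusted p = 3.5e-04, 0.00185 and 0.0134).

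**Figure D4:**
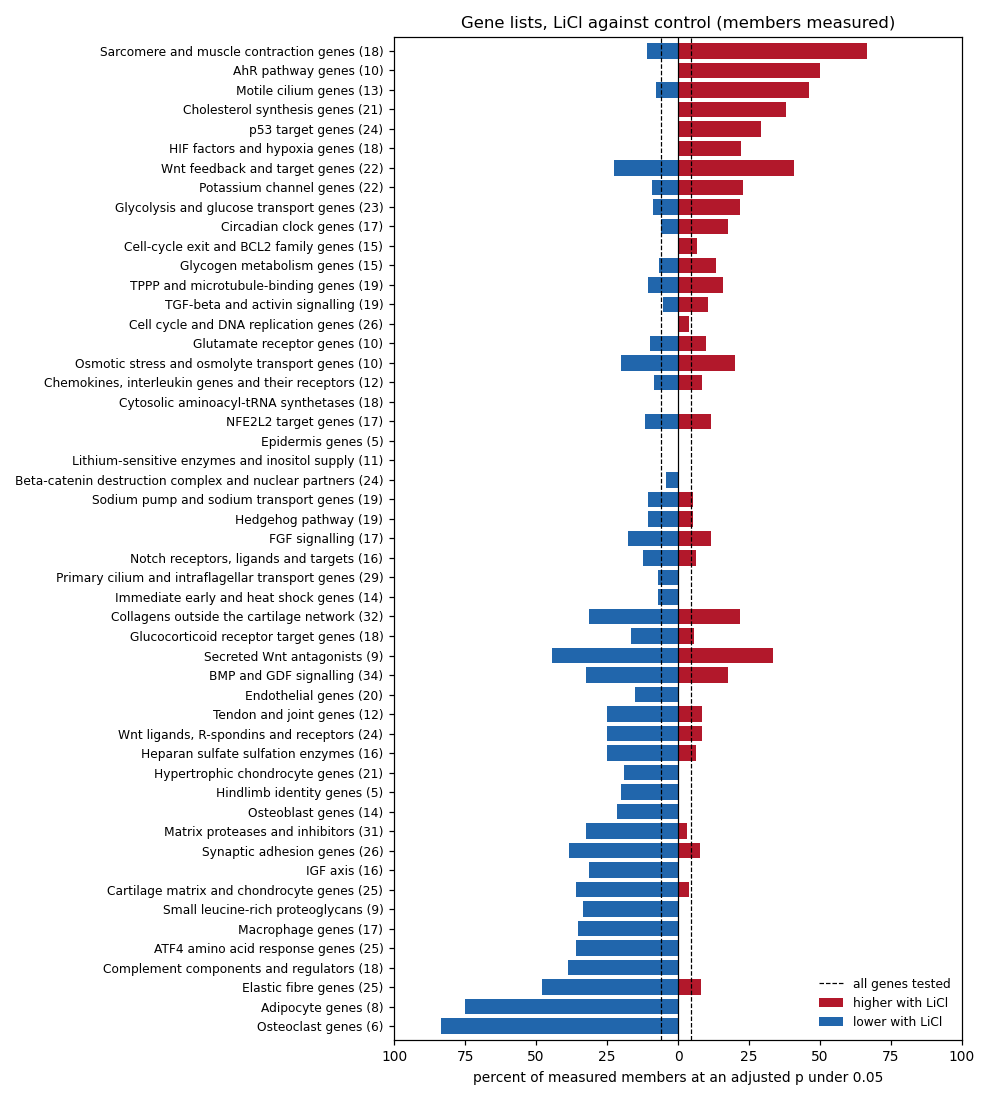
Each bar is a gene list with at least 5 measured members (number in parentheses), and its length is the percent of members at an adjusted p under 0.05 that were higher (red, to the right) or lower (blue, to the left) with LiCl. Dashed lines mark 4.71% and 5.90%, the shares of all genes tested. Sarcomere, AhR, motile cilium and Wnt feedback lists reach furthest to the right, and osteoclast, adipocyte and elastic fiber lists furthest to the left. The count filter favored a rise in sparse sarcomere and motile cilium genes and a fall in sparse adipocyte genes.

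The same drug was added in a second setting, to pools that also received dexamethasone. That comparison shares none of its libraries with the first, but it shares the estimate of spread and the experiments that gave the pools. LiCl and control libraries with the same replicate number deviated together. Whether libraries of the separate settings did so was not tested. With dexamethasone present, LiCl gave 481 genes higher (3.82%) and 603 lower (4.78%) at an adjusted p under 0.05, and 172 called genes (1.36%). Depth was lower there, with median totals of 10057103 counts with dexamethasone and 10941818 with both drugs. The medians were 20069564 in control and 18651019 with LiCl, so numbers of genes past the test are not comparable between the settings. Of the 199 genes called with LiCl alone, 192 had the same direction there (96.5%), and 129 of them also had an adjusted p under 0.05. The share of all genes tested with the same direction in both settings was not computed, so the 96.5% has no background beside it. The 129 genes were 71 of the 102 higher genes and 58 of the 97 lower genes. The 96 genes called in both settings, 48.2% of the first list and 55.8% of the second, all kept their direction. Of the 199, 7 had the opposite sign with dexamethasone, 0 of them with an adjusted p under 0.05 by edgeR and 1 with an unadjusted p under 0.05. The median log2 fold change of the 102 higher genes was 1.37 alone and 1.11 with dexamethasone, and that of the 97 lower genes -1.24 and -0.97. These genes were selected by their fold in the first comparison, so the smaller medians in the second cannot be read as a weaker effect.

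The Wnt genes moved there too. With dexamethasone, the log2 fold changes of Nkd2, Notum, Nkd1 and Axin2 were 1.81, 1.64, 0.88 and 0.82, and those of Frzb and Sfrp2 were -1.72 and -1.08, all with an edgeR adjusted p of 0.00428 or less. Tppp3 was again far higher (4.15, edgeR adjusted p = 1.8e-07), as were Slc6a12 (2.99) and Acta1 (3.53). Other genes did not pass there. Col10a1 had a log2 fold change of -0.15 with dexamethasone (edgeR adjusted p = 0.597) against -1.02 without it, Cytl1 -0.29 against -1.81, and Fabp4 -0.31 against -2.20. Tiparp, Per1 and Egln3 likewise did not pass (0.16, 0.05 and 0.70). The difference between the settings, tested as an interaction over all 12602 genes, passed for 1 gene, Hif3a, and for none of these 6. Without adjustment, 705 genes (5.59%) had an interaction p under 0.05.

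**Figure D5:**
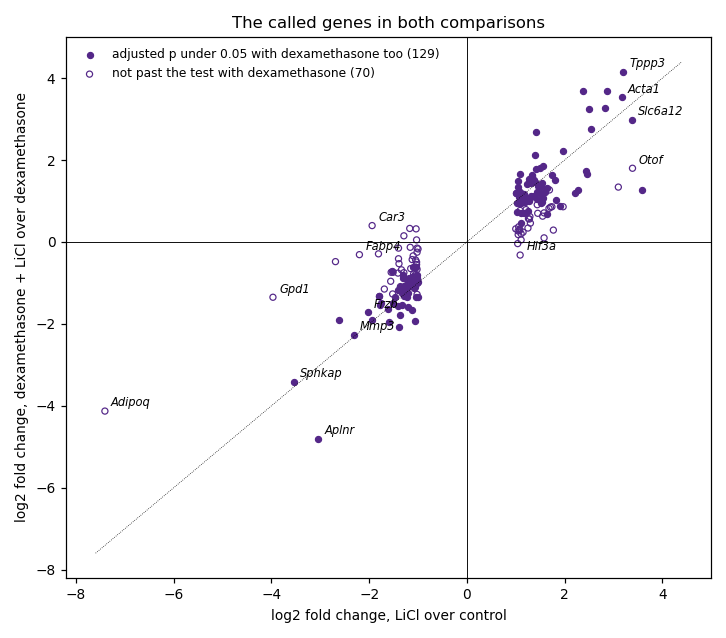
Each point is 1 of the 199 called genes, placed by its log2 fold change of LiCl over control (horizontal) and of dexamethasone + LiCl over dexamethasone (vertical), with the dotted line where both are equal. The 129 filled points also passed the test with dexamethasone. Most points lie in the same direction on both axes, and Hif3a, Car3, Fabp4 and Adipoq lie away from the line.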

How the data were processed

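Alignment by the authors used Subread, Picard removed duplicates, and HTSeq-count gave raw counts per gene symbol, deposited as 1 table per library after technical replicates were merged. Versions are not given in the sources used here. A human build is named in the submitters' processing notes although the samples are rat, so no coordinates are given for counted genes. The kit kept strand, but the strand setting of the counting is not stated, so overlapping and antisense genes are uncertain. Of 30045 symbols, 23569 had a count, and 12602 that reached 60 counts in 2 or more libraries of the 12 were kept, as in the study's methods. Totals were 9055581 to 21953446 counts. Reads carried no molecular tags, so intervals cover counting error only.

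After TMM scaling, counts of all 12 libraries in 4 conditions were fitted with edgeR 4.0.16 (quasi-likelihood F-test, two-sided, Benjamini-Hochberg adjustment) in R 4.3.3. Groups follow the labels. Called genes had a fold above 2 or below 0.5 and an adjusted p under 0.05, and list members were counted at that p alone. No set test was run. Fold changes in CPM are ratios of group means. Libraries with the same replicate number deviated together (r = 0.302, 0.209 and 0.238, against -0.216 to -0.0259 for other pairs). They can be read as pairs, but the main test did not use the pairing. The replicate block is the same fit with that number as a term. On simulated counts over 12331 genes, the test recovered 72, 86, 100 and 98% of 50 genes changed 1.5, 2, 3 and 5-fold, with 10 false calls. Alternatives were RLE scaling, DESeq2 1.42.0, edgeR's filterByExpr, no filter, the block, 6 libraries, each library left out, and thinned counts. Genes were named from 57 lists and, among called genes in each direction, from the 20 largest changes without overlap between the groups, the 10 most abundant and the 10 with the smallest p. Lack of overlap in those 20 is therefore no separate support. The comparison, the lists and the alternatives were chosen with earlier results of these data known. Promoter windows come from a RefSeq table, which held 9510 of the kept symbols. A few genes are not reported here.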

Additional observations from a re-analysis of the deposited data

Results flagged for a closer look

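Hif3a, which encodes an inhibitory relative of the hypoxia factors, was the 1 gene of 12602 whose LiCl difference changed with dexamethasone at an adjusted p under 0.05. It measured 22.3, 14.3 and 24.0 CPM in the control pools and 36.8, 45.8 and 48.1 CPM with LiCl, so it rose with LiCl alone (log2 fold change 1.09 ± 0.14 SE). With dexamethasone alone it measured 183 ± 9.78 CPM, and with both drugs 147 ± 6.82 CPM (log2 fold change -0.32 ± 0.13, edgeR adjusted p = 0.157). The interaction was -1.41 ± 0.19 on the log2 scale (edgeR adjusted p = 0.0334). The level was thus already well above control with dexamethasone, and whether that bears on the difference was not tested.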

How the results depend on the processing

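The number of called genes was 199 with RLE scaling, 201 by DESeq2, 198 with 6 libraries, 155 with thinned counts and 211 with the replicate block, which shared 198 of the 199. It was 330 with filterByExpr (177 higher, 153 lower) and 406 without a filter (224 and 182), where more genes were tested. Leaving out 1 library gave 182 to 220 called genes (92 to 125 higher, 84 to 104 lower) and 707 to 1213 genes at an adjusted p under 0.05 (309 to 543 higher, 398 to 670 lower), from fewer samples. The replicate block gave 936 genes higher in place of 594, and no filter gave 909. The block gave the same call for each named gene past the test and added 6 others, and DESeq2 and no filter added 5 each, whose values stand in the report. Cyp1b1 passed without control pool 1 (adjusted p = 0.0411) and C1qa without control pool 3 (0.0314). Of 163 named genes past the test, 160 held in every fit without 1 library. That was the condition for saying that a gene rose or fell, so the number does not measure robustness. The exceptions were Lef1, Znrf3 and Plvap, whose values stand in the report. Thinned counts, which lower the depth, left Myh11, Ubxn11 and Znrf3 at adjusted p = 0.0797, 0.0816 and 0.0646 by edgeR and 21 named genes untested, and with 6 libraries Znrf3 had 0.0717. No named gene turned its direction under any of these alternatives while past the test. Control libraries of 10761816 counts or more leave 3 counts at 0.137 to 0.279 CPM, so differences near that level cannot be read.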

Other observations

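Other immune genes also differed with LiCl. Of 18 measured complement components and regulators, 7 were lower and 0 higher, with 4 to 10 lower in fits without 1 library. The list shares C1qa, C1qb and C1qc, which did not pass, with the macrophage markers and Cfd, which fell, with the adipocyte markers. Cd55, which protects the cell surface from complement, measured 15.3, 15.5 and 16.6 CPM in control and 6.79, 7.45 and 7.36 CPM with LiCl (2.19-fold lower, -1.13 ± 0.17, edgeR adjusted p = 6.7e-04). Clu, clusterin, fell from 66.9 ± 5.38 to 41.2 ± 1.18 CPM (edgeR adjusted p = 1.9e-04). The groups did not overlap in either gene. The chemokines Cxcl13 and Cxcl12 went opposite ways. Cxcl13, which attracts B cells, measured 2.03, 2.32 and 3.12 CPM in control and 10.9, 13.0 and 11.1 CPM with LiCl (2.22 ± 0.21, edgeR adjusted p = 9.4e-06). Cxcl12, a stromal chemokine that holds blood progenitors in bone, fell from 72.1 ± 3.18 to 41.5 ± 4.95 CPM (edgeR adjusted p = 1.9e-04). The immune cell surface genes Cd5 and Cd80 rose from 0.528 ± 0.242 and 0.895 ± 0.311 CPM to 4.79 ± 1.03 and 3.70 ± 0.73 CPM (edgeR adjusted p = 8.5e-04 and 1.6e-04).

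Several large changes belong to none of the groups described. Sphkap, an anchor for protein kinase A, measured 6.93, 6.22 and 5.94 CPM in control and 0.572, 0.734 and 0.339 CPM with LiCl, 11.6-fold lower (-3.54 ± 0.25, edgeR adjusted p = 5.9e-07). Enpp6, a choline phosphodiesterase, fell 6.17-fold, and Vstm2a, Lmo3, Gna14 and Cbln1 fell 3.50-fold, 3.50-fold, 3.48-fold and 2.98-fold. Gas2, a protein of the actin skeleton, fell from 80.2 ± 9.96 to 32.3 ± 3.55 CPM. Otof, an exocytosis protein of the inner ear, measured 0.315, 0.371 and 0.504 CPM in control and 6.79, 3.15 and 3.10 CPM with LiCl (edgeR adjusted p = 0.00246). Abcb1b, a drug efflux pump, rose 3.79-fold from 6.01 ± 0.801 to 22.8 ± 3.57 CPM, and Tspan2, a tetraspanin, rose 2.71-fold from 22.3 ± 1.40 to 60.4 ± 2.41 CPM. In each of these genes the control and LiCl pools did not overlap. For all but Gas2 and Tspan2, that was a condition of being picked.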
